A study of Rattus norvegicus with 8 samples.

Results

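Heat shock proteins and chaperones help other proteins fold, and 8 of their genes were followed here in C6 cells, an established rat glioma line with glial features. The members were all probe sets that the platform's probe table gives to Hsph1, Hspb1, Hspa5, Hspa8, Hspd1, Hspe1, Serpinh1 or Fkbp2, which made 19 of 8799 probe sets on the array. Of these, 16 carried a single gene symbol. The other 3 carried a second symbol and are not assigned to 1 gene: both probe sets of Hspa8 are shared with Haus8l2, and 1 of 5 for Hspb1 is shared with Asb2. RNA was measured on 8 oligonucleotide arrays in 4 groups of 2: C6 cells labelled slow, C6 cells labelled fast, and the same speeds for cells labelled C6SPGFP, with no treatment or age named for any of them. The labels give migration as the subject. They do not spell out C6SPGFP, the way in which fast cells were taken apart from slow ones, or the origin of the replicates, so the p-values cover only the spread from array to array, which may be technical.

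As background, the members work in different compartments. In the cytosol Hspa8, the constitutive member of the Hsp70 family, binds unfolded stretches of protein, Hsph1 releases its bound nucleotide and starts the next cycle, and the small heat shock protein Hspb1 holds unfolded proteins in solution and binds actin. Hspa5, also called BiP, is the Hsp70 of the endoplasmic reticulum and the classical target of the unfolded protein response, in which stress sensors in the membrane of that compartment raise chaperone genes. Serpinh1, also called Hsp47, escorts procollagen there, and Fkbp2 is a prolyl isomerase of the same compartment. Hspd1 and Hspe1 are the barrel and the lid of the chaperonin in mitochondria. Heat shock factors bind repeated GAA units in promoters, and the unfolded protein response acts through the endoplasmic reticulum stress element.

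The promoters of the 3 genes that passed a test below, and a stretch between the start sites used for Hspd1 and Hspe1, are shown because they hold these elements. Sequences are from RefSeq on GRCr8, 5′ to 3′ on the gene's strand. Capitals mark matches to GAANNTTC or TTCNNGAA, the paired units of the heat shock element, or to the endoplasmic reticulum stress element, CCAAT and CCACG with any 9 bases between them. The first 3 show the 250 bases before the start site: Hspa5 at chr3:38452766-38453015 on the plus strand, Hsph1 at chr12:10427118-10427367 on the plus strand and Hspb1 at chr12:26432302-26432551 on the minus strand. The last shows 30 bases at chr9:64084256-64084285 on the plus strand.
Hspa5: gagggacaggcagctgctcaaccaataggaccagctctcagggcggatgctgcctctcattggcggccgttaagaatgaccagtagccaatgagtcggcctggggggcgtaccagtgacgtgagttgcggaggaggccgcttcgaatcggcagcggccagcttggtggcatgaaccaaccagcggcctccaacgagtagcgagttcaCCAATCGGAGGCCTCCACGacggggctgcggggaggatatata
Hsph1: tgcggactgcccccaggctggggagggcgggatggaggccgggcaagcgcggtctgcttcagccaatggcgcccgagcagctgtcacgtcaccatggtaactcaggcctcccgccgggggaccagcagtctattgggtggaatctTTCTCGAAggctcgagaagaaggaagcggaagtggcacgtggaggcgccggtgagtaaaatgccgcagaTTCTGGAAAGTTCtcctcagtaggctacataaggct
Hspb1: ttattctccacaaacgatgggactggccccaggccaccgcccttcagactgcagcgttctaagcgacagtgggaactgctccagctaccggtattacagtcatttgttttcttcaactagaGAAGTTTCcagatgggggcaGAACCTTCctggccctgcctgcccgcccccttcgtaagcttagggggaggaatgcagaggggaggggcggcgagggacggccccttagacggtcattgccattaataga
Hspd1 and Hspe1: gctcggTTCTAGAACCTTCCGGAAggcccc

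All 8 members were matched in the promoter table, in which a window runs from 250 bases before to 50 bases after the start site. Hspa5 held the endoplasmic reticulum stress element 1 time, and none of the other 7 members matched it in this window. Searched on both strands, this motif was found in 22 of 33469 rat promoters (0.0657%). The 3-unit heat shock element, GAANNTTC followed by any 2 bases and GAA, on either strand, contains both pairs and was found in 5 members, Hsph1, Hspa8, Hspd1, Hspe1 and Serpinh1, and in 267 of all promoters (0.798%). Hspd1 and Hspe1 lie head to head on chromosome 9 with start sites 290 bases apart in this table, so their windows overlap and their matches are the same bases. By gene extents Hspd1 reaches to 64084332 and Hspe1 begins at 64084327, so the printed stretch lies within the extent of Hspd1. Hspb1 held 2 single pairs of the form GAANNTTC, a motif present in 8.59% of promoters, and Fkbp2 held none of these motifs. A match is a description of the letters, not evidence of binding.

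The arrays set limits on all values. As deposited, the first C6SPGFP fast array was scaled to a trimmed mean of 500.5 and the others to 100.1 to 105.8. Quantile normalisation was applied before any comparison, and levels below are normalised signals. Values from different probe sets are on different scales and are not set against each other. Vim, the intermediate filament that C6 cells carry, lay between 2590 and 3830 on all arrays. Of 10 glial markers 9 were measured. Their summed signal was 3120 to 3510 in C6 fast, 5330 to 5510 in C6 slow, 7400 to 7480 in C6SPGFP fast and 7750 to 7830 in C6SPGFP slow cells, with Sox10 at 1.56 in C6 fast and between 304 and 551 in the other groups, as means of 2 arrays. The summed signal of 7 measured microglial and haematopoietic markers was 131 to 144 in C6 fast and 84.9 to 108 in the other groups. Without Cd37, at 53.1 in C6 fast and 12.6 to 19.9 elsewhere, it was 77.3 to 90.6 in C6 fast and 68.7 to 89.9 in the other groups. That of 6 endothelial and mural markers was 293 to 368 and that of 5 neuronal markers 156 to 292. Levels within every list were uneven. Of the glial markers, Fabp7 lay between 0.6 and 3.88 and Slc1a3 between 2.91 and 19.3 on all arrays. With a mean of 2660 in C6 fast cells, Vim held most of the glial sum there. Between the sets Cspg5 ran against the glial sum, while Sox10 went with it. Cspg5 had means of 89.8 (slow) and 73.3 (fast) for C6, and 69.1 (slow) and 64.4 (fast) for C6SPGFP. Itgam, Kdr and Cd74 stayed below 10 on every array. Ptprc lay between 28.4 and 48.3, Map2 between 77.3 and 174 and Acta2 between 145 and 236. The ratio of 3′ to 5′ signal, a measure of RNA integrity, was read on 3 controls. For actin it was lower on C6 arrays, at 1.006 to 1.033 against 1.053 to 1.122 on C6SPGFP arrays. For GAPDH it was higher on C6 arrays, at 1.002 to 1.052 against 0.967 to 0.996. For hexokinase the sets overlapped, at 1.571 to 2.227 on C6 and 1.486 to 1.722 on C6SPGFP arrays. The part of marker lists and RNA integrity in the results below was not tested.

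Of the 19 member probe sets, 18 reached the mean signal of 8 required for a test. The probe set of Hspb1 that did not, rc_AA998683_g_at, lay between 2.912 and 8.256 on the 8 arrays. Tests were contrasts of the 4 group means in limma on log2 of signal plus 8, with Benjamini-Hochberg adjustment over the 6684 probe sets tested, and a probe set is said to have passed at an adjusted p under 0.05. The log2 changes are given ± SE and folds are of signal plus 8. No member probe set passed between fast and slow cells in either set, against 6.66% of all probe sets in C6 and 1.39% in C6SPGFP. Between the sets 4 member probe sets passed, 2 of 18 in slow and 2 of 18 in fast cells, against 6.34% and 15.6% of all probe sets. Hsph1 was lower and Hspb1 higher in C6SPGFP slow than in C6 slow cells, each on 1 probe set. For Hspa5, 2 probe sets were higher in C6SPGFP fast than in C6 fast cells.

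**Figure D1:**
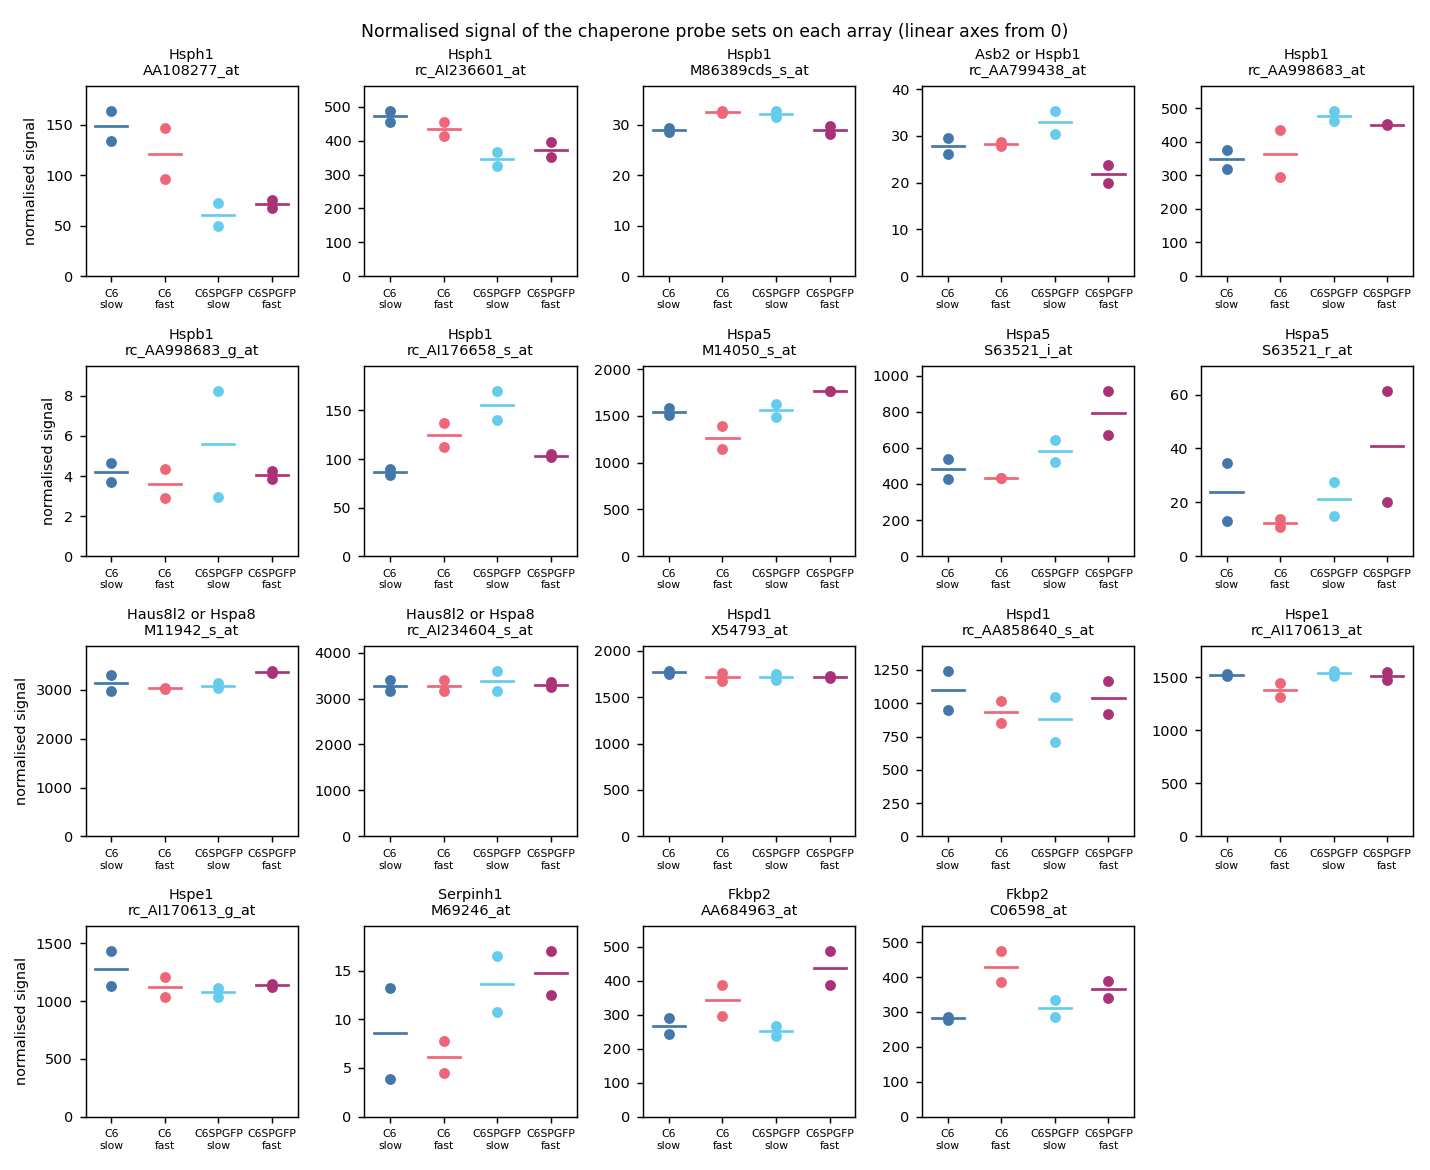
Normalised signal of the 19 member probe sets on each array, on linear axes that start at 0 and differ between panels; points are arrays and bars the means of 2 arrays per group. Hsph1 AA108277_at lies between 49.66 and 75.78 on C6SPGFP and between 96.24 and 164.1 on C6 arrays, while Hspd1 X54793_at stays between 1670 and 1784.

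Hspa5, the BiP chaperone of the endoplasmic reticulum whose promoter is printed above, had its highest mean in C6SPGFP fast cells on all 3 of its probe sets. The signal of M14050_s_at was 1585 and 1509 on the C6 slow arrays, 1393 and 1146 in C6 fast, 1486 and 1633 in C6SPGFP slow, and 1770 and 1764 in C6SPGFP fast cells. Both C6 fast arrays were below and both C6SPGFP fast arrays above all 4 slow arrays. Probe set S63521_i_at gave 535.8 and 429.1 in C6 slow, 432.0 and 432.5 in C6 fast, 519.9 and 645.4 in C6SPGFP slow, and 671.8 and 916.2 in C6SPGFP fast cells. Here too the C6SPGFP fast arrays were above all others, but the slow groups overlapped with each other and C6 slow with C6 fast. The dim S63521_r_at spread widely, from 10.99 to 61.45, with 20.18 and 61.45 on the C6SPGFP fast arrays. Such separation was common: over all probe sets, fast and slow arrays did not overlap, in either direction, for 45.1% in C6 and 44.1% in C6SPGFP. The sets did not overlap for 55.6% in fast cells. Those shares set a single group against another, and none was computed for an order over all 4 groups.

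Among fast cells, Hspa5 was higher in C6SPGFP than in C6 by 0.48 ± 0.12 on M14050_s_at (1.40-fold, limma adjusted p = 0.0305) and by 0.85 ± 0.20 on S63521_i_at (1.80-fold, adjusted p = 0.0205). The third probe set gave 1.12 ± 0.48 and did not pass (adjusted p = 0.165). In this comparison 15.6% of all probe sets passed, 8.29% with a higher and 7.3% with a lower signal in C6SPGFP, against 2 of 18 members with a higher and 0 with a lower signal. Neither call held in every run that left out an array. M14050_s_at had adjusted p = 0.148 without C6 fast replicate 2, 0.0505 without C6SPGFP slow replicate 2, and 0.106 and 0.128 without C6SPGFP fast replicate 1 and 2. S63521_i_at had 0.0855 and 0.0785 without C6 fast replicate 1 and 2 and 0.145 without C6SPGFP fast replicate 2. The first call also ended without the trend in the moderation (0.116) and in a fit of the fast arrays alone (0.0699). With scaling to a common trimmed mean, M14050_s_at was at 0.31 (adjusted p = 0.166) and S63521_i_at at 0.85 (adjusted p = 0.0187).

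Within each set Hspa5 did not pass between fast and slow cells. On M14050_s_at the log2 change was -0.29 ± 0.12 in C6 (adjusted p = 0.235) and 0.18 ± 0.12 in C6SPGFP (adjusted p = 0.692). All 3 probe sets had a negative value in C6 and a positive one in C6SPGFP. The difference between these changes was 0.47 ± 0.17 on M14050_s_at (adjusted p = 0.232), 0.58 ± 0.28 on S63521_i_at (adjusted p = 0.372) and 1.20 ± 0.68 on S63521_r_at (adjusted p = 0.476), so unequal changes in the 2 sets were not established. Among slow cells the value was 0.01 ± 0.12 on M14050_s_at, with a 95% interval from -0.27 to 0.29.

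**Figure D2:**
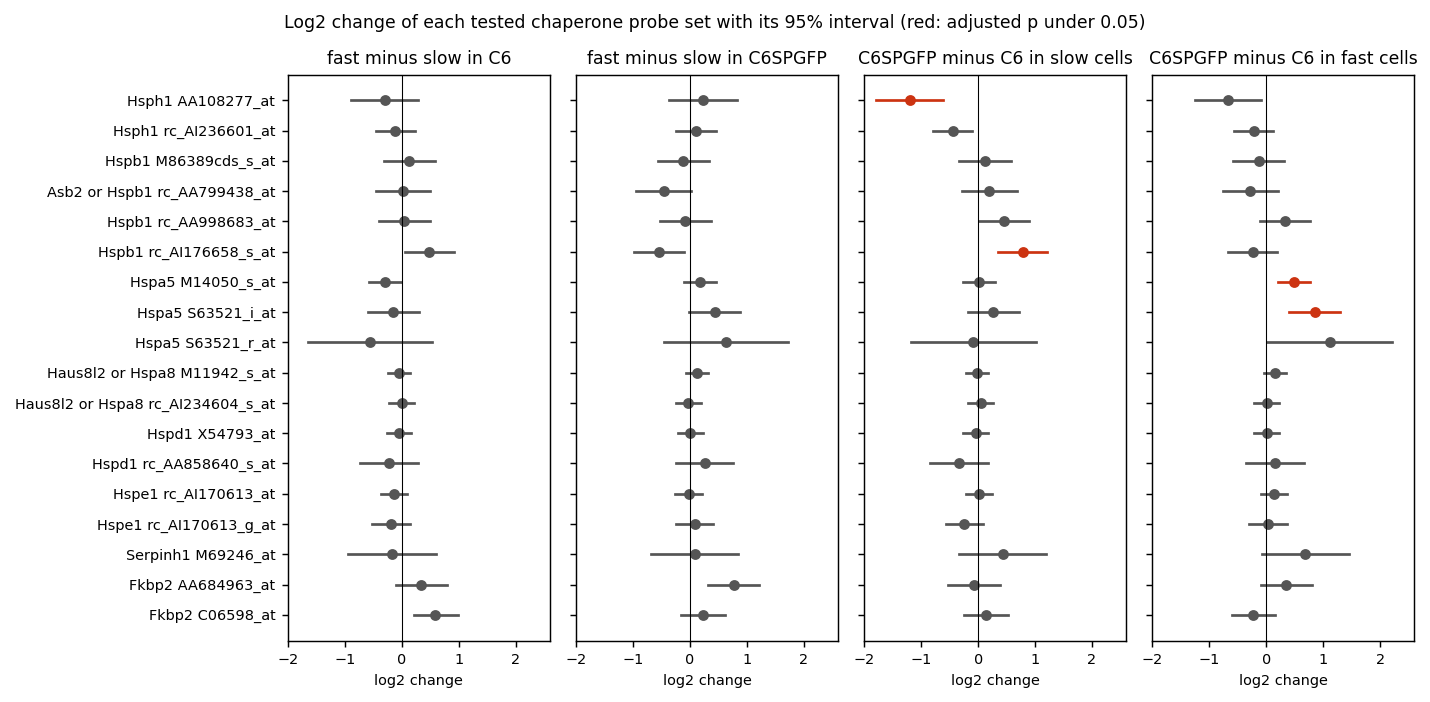
Log2 change of the 18 tested member probe sets in 4 comparisons, with 95% intervals from the fit over 8 arrays; red marks an adjusted p under 0.05. Red points stand only in the 2 comparisons between the sets, for Hsph1 AA108277_at and Hspb1 rc_AI176658_s_at in slow cells and 2 Hspa5 probe sets in fast cells.

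Hsph1, the large Hsp110-type partner of the Hsp70 proteins, was lower in C6SPGFP than in C6 cells. On AA108277_at the signal was 133.9 and 164.1 in C6 slow, 146.4 and 96.24 in C6 fast, 71.99 and 49.66 in C6SPGFP slow, and 75.78 and 67.34 in C6SPGFP fast cells. Every C6SPGFP array was below every C6 array, while slow and fast overlapped within each set. On rc_AI236601_at it was 489.5 and 456.1 in C6 slow, 456.7 and 414.6 in C6 fast, 324.9 and 367.4 in C6SPGFP slow, and 350.8 and 395.4 in C6SPGFP fast cells, again with no overlap between the sets. Among all probe sets the 2 sets did not overlap, in either direction, for 51.4% in slow and 55.6% in fast cells. Those shares set 2 arrays against 2. No share was computed for all arrays of a set against all of the other.

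Among slow cells Hsph1 fell 2.30-fold on AA108277_at (log2 change -1.20 ± 0.26, limma adjusted p = 0.0310), and on rc_AI236601_at the value was -0.44 ± 0.15 (adjusted p = 0.130). In this comparison 6.34% of all probe sets passed, 3.05% with a lower and 3.29% with a higher signal in C6SPGFP, and 2 of 18 members passed, 1 in each direction. Among fast cells the 2 probe sets were at -0.68 ± 0.26 (adjusted p = 0.123) and -0.22 ± 0.15 (adjusted p = 0.394). The call for AA108277_at ended without C6 slow replicate 1 or 2 (adjusted p = 0.0754 and 0.115) and without C6SPGFP slow replicate 1 or 2 (0.0658 and 0.210). It also ended without C6SPGFP fast replicate 1 or 2 (0.0501 and 0.0586) and without a filter on low signals (0.0517), although the log2 change stayed between -1.44 and -0.97 in the 8 runs without an array. Between fast and slow cells the Hsph1 probe sets were at -0.30 ± 0.26 and -0.12 ± 0.15 in C6 and at 0.23 ± 0.26 and 0.11 ± 0.15 in C6SPGFP, none of which passed (adjusted p from 0.611 to 0.878).

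Hspb1, the small heat shock protein also called Hsp25 or Hsp27 in rodents, gave different patterns on its probe sets. On rc_AI176658_s_at the signal was 89.71 and 84.03 in C6 slow, 136.8 and 112.4 in C6 fast, 170.3 and 140.6 in C6SPGFP slow, and 105.2 and 102.0 in C6SPGFP fast cells. Fast arrays were above slow ones in C6 and below them in C6SPGFP. On rc_AA998683_at it was 319.2 and 375.7 in C6 slow, 294.5 and 435.1 in C6 fast, 492.8 and 463.0 in C6SPGFP slow, and 452.6 and 448.4 in C6SPGFP fast cells, with all C6SPGFP arrays above all C6 arrays. The dim M86389cds_s_at stayed between 28.16 and 32.82, with fast arrays also above slow ones in C6 and below them in C6SPGFP. Among all probe sets fast and slow arrays did not overlap, in either direction, for 45.1% in C6 and 44.1% in C6SPGFP. The sets did not overlap for 51.4% in slow and 55.6% in fast cells. Those shares set 2 arrays against 2, and none was computed for a pattern over all 4 groups.

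In slow cells Hspb1 rc_AI176658_s_at was higher in C6SPGFP than in C6, by 0.78 ± 0.19 (1.72-fold, limma adjusted p = 0.0478), and rc_AA998683_at was at 0.46 ± 0.20 (adjusted p = 0.233). The call ended in 7 of 8 runs without an array: without C6 slow replicate 1 or 2 (adjusted p = 0.123 and 0.132), C6 fast replicate 1 (0.0501), C6SPGFP slow replicate 1 or 2 (0.253 and 0.137) and C6SPGFP fast replicate 1 or 2 (0.0772 and 0.0867). It ended as well without a filter (0.0592), without the trend in the moderation (0.0528) and in a fit of the slow arrays alone (0.0737). Between fast and slow cells this probe set was at 0.48 ± 0.19 in C6 (adjusted p = 0.204) and at -0.54 ± 0.19 in C6SPGFP (adjusted p = 0.336). The difference between these changes was -1.02 ± 0.27 and did not pass (adjusted p = 0.0887, unadjusted p = 0.00455 from limma). On rc_AA998683_at that difference was -0.13 ± 0.28, on M86389cds_s_at -0.26 ± 0.28, and on rc_AA799438_at, shared with Asb2, -0.48 ± 0.30.

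Fkbp2, the prolyl isomerase of the endoplasmic reticulum, had a higher mean in fast than in slow cells of both sets on both probe sets, without passing. On C06598_at the signal was 286.4 and 276.0 in C6 slow and 384.9 and 474.8 in C6 fast cells, and 286.6 and 333.5 in C6SPGFP slow against 340.8 and 389.4 in C6SPGFP fast cells. On AA684963_at it was 290.9 and 242.6 in C6 slow, 295.8 and 389.2 in C6 fast, 237.9 and 267.6 in C6SPGFP slow, and 387.9 and 488.0 in C6SPGFP fast cells. In all 4 pairs of groups both fast arrays were above both slow arrays of the same set. Among all probe sets the groups did not overlap, in either direction, for 45.1% in C6 and 44.1% in C6SPGFP.

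The largest of the Fkbp2 values were 0.59 ± 0.17 on C06598_at in C6 (limma adjusted p = 0.0829) and 0.77 ± 0.20 on AA684963_at in C6SPGFP (adjusted p = 0.166). The other probe set was at 0.34 ± 0.20 in C6 (adjusted p = 0.410) and 0.23 ± 0.17 in C6SPGFP (adjusted p = 0.721). Which probe set gave the larger value thus switched between the sets. Between the sets Fkbp2 lay between -0.23 and 0.35, with adjusted p-values from 0.295 to 0.878.

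Hspd1 and Hspe1, the chaperonin pair that shares a promoter, differed little between the groups. Hspd1 X54793_at was 1753 and 1784 in C6 slow, 1760 and 1670 in C6 fast, 1684 and 1749 in C6SPGFP slow, and 1709 and 1728 in C6SPGFP fast cells. Hspe1 rc_AI170613_at was 1506 and 1527 in C6 slow, 1443 and 1315 in C6 fast, 1558 and 1509 in C6SPGFP slow, and 1473 and 1543 in C6SPGFP fast cells. On both of these probe sets C6 fast had the lowest mean, by less than 1 SD of that group for Hspd1. The second probe sets spread more between replicates, at 709.2 to 1243 for Hspd1 rc_AA858640_s_at and 1032 to 1434 for Hspe1 rc_AI170613_g_at.

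None of the 4 chaperonin probe sets passed in any comparison (adjusted p from 0.395 to 0.999). For Hspd1 X54793_at the 95% interval of the fast minus slow change ran from -0.26 to 0.17 in C6 and from -0.21 to 0.22 in C6SPGFP. For Hspe1 rc_AI170613_at it ran from -0.37 to 0.09 and from -0.26 to 0.21. A p that misses the threshold does not show equal levels, and these intervals bound the change.

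Hspa8, the constitutive Hsp70 of the cytosol, was read by 2 probe sets that Haus8l2 shares. On M11942_s_at the signal was 2982 and 3315 in C6 slow, 3036 and 3027 in C6 fast, 3142 and 3036 in C6SPGFP slow, and 3348 and 3392 in C6SPGFP fast cells. On rc_AI234604_s_at the C6 slow and C6 fast arrays held the same pair of values, 3154 and 3392, which quantile normalisation gives to probe sets of the same rank. The C6SPGFP values there were 3161 and 3602 in slow and 3247 and 3357 in fast cells. Neither passed in a comparison, and the fast minus slow changes lay between -0.05 and 0.13.

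The comparison of Hspa8 between the sets turned with the scaling. The 99th percentile of the signal, after scaling every array to a common trimmed mean, was 2011 to 2226 on C6 and 1463 to 1648 on C6SPGFP arrays, and quantile normalisation makes these equal. With the trimmed mean alone, rc_AI234604_s_at was 2605 and 2703 in C6 fast against 1875 and 2055 in C6SPGFP fast cells. The log2 change was then -0.43 (limma adjusted p = 0.0494), against 0.01 ± 0.10 with quantile normalisation (adjusted p = 0.951) and -0.06 with cyclic loess. M11942_s_at moved from 0.15 to -0.31, and Hspd1 X54793_at from 0.003 to -0.24 under the same scaling. Hspe1 rc_AI170613_at went from 0.13 to -0.02. The sign of the difference between the sets in fast cells is therefore not settled for these 3 genes. In slow cells Hsph1 AA108277_at stayed at -1.07 (adjusted p = 0.0379) and Hspb1 rc_AI176658_s_at at 0.88 (adjusted p = 0.0242) under that scaling.

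**Figure D3:**
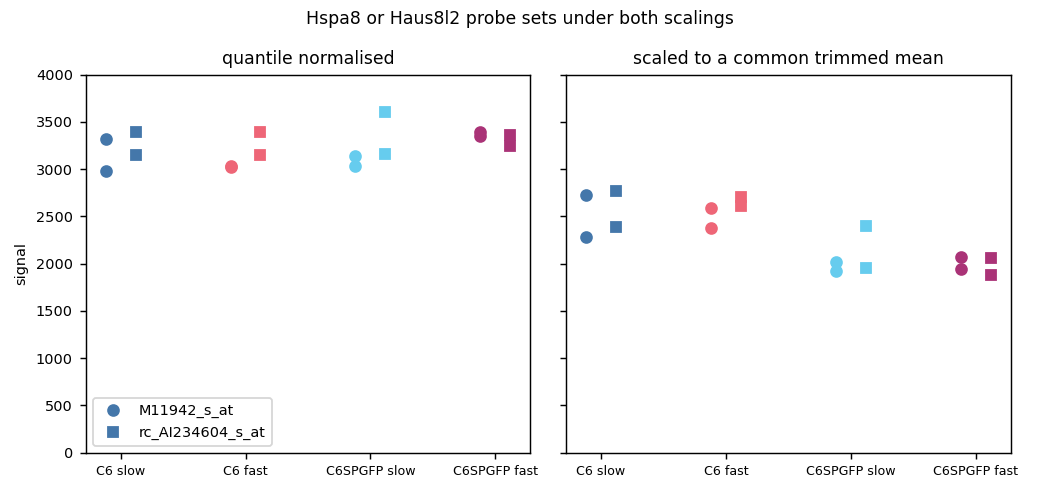
Signal of the 2 probe sets shared by Hspa8 and Haus8l2 on each array, quantile normalised (left) and scaled to a common trimmed mean (right), on linear axes from 0. On the right, rc_AI234604_s_at is 2605 and 2703 in C6 fast and 1875 and 2055 in C6SPGFP fast cells; on the left these 2 groups overlap at 3392 and 3154 against 3247 and 3357.

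Serpinh1, the collagen chaperone, was near the floor of measurement. Its single probe set M69246_at gave 3.862 and 13.24 in C6 slow, 4.525 and 7.825 in C6 fast, 10.79 and 16.49 in C6SPGFP slow, and 12.52 and 17.04 in C6SPGFP fast cells. Both C6SPGFP fast arrays were above both C6 fast arrays, and the slow groups overlapped. Among all probe sets the fast groups did not overlap, in either direction, for 55.6%. The log2 change was 0.69 ± 0.34 between the sets in fast cells (limma adjusted p = 0.222) and -0.17 ± 0.34 and 0.08 ± 0.34 between fast and slow cells in C6 and C6SPGFP. Whether so low a signal exceeds background was not tested.

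Counted together, 0 of 18 members passed between fast and slow cells in C6, where 6.66% of all probe sets did, 2.69% higher and 3.96% lower. In C6SPGFP it was 0 of 18, against 1.39% of all probe sets, 1.06% higher and 0.329% lower. At an unadjusted p under 0.05 from limma there were 3 members in C6, Hspa5 M14050_s_at, Hspb1 rc_AI176658_s_at and Fkbp2 C06598_at, against 19.4% of all probe sets. In C6SPGFP there were 2, Hspb1 rc_AI176658_s_at and Fkbp2 AA684963_at, against 9.69%. The median log2 change of the members was -0.08 in C6 and 0.09 in C6SPGFP, beside 0.01 and -0.02 over all probe sets. For the difference between the sets' changes, 0 of 18 members passed against 3.82% of all probe sets, 2.71% positive and 1.11% negative, and 2 had an unadjusted p under 0.05 against 15.4%. Between the sets the members' median was 0.01 in slow and 0.08 in fast cells, beside 0.01 and -0.03 over all probe sets. There 4 members had an unadjusted p under 0.05 in slow and 4 in fast cells, against 21% and 28.9% of all probe sets. Each group enters more than 1 comparison, so the comparisons are not independent of each other.

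The other genes of the endoplasmic reticulum give the setting of Hspa5. Of 37 listed chaperones and unfolded protein response genes, 20 were tested, and among fast cells 4 were higher and 1 lower in C6SPGFP (15.6% of all probe sets passed), with a list median of 0.02. The oxidase Ero1b, which drives disulfide formation, was 16.44 and 12.74 in C6 fast and 47.3 and 44.06 in C6SPGFP fast cells (1.25 ± 0.23, adjusted p = 0.00655). Eif2ak3, also called PERK, a stress sensor of that membrane, rose by 1.08 ± 0.23 (adjusted p = 0.0132), and the BiP cochaperone Dnajb9 by 1.02 ± 0.22 (adjusted p = 0.0165). The remaining gene, Erp29, was at 0.60 ± 0.16 (adjusted p = 0.0416) and is named outside the rule, after its values were seen. Its call ended without C6 fast replicate 2 (0.177), C6SPGFP slow replicate 1 or 2 (0.0726 and 0.0725) or C6SPGFP fast replicate 1 or 2 (0.201 and 0.0893), and also without a filter (0.0523), without the trend (0.0893) or with only the fast arrays (0.0789). Trib3, a pseudokinase induced by stress, fell from 79.1 and 121.1 to 6.188 and 21.64 (-2.37 ± 0.40, adjusted p = 0.00500). The calls for Ero1b and Trib3 held in all 8 runs without an array. That for Eif2ak3 ended without C6 fast replicate 1 (0.0668) or C6SPGFP fast replicate 2 (0.104). That for Dnajb9 ended without C6 fast replicate 1 or 2 (0.0594 and 0.0715) or C6SPGFP fast replicate 1 or 2 (0.0530 and 0.107).

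Hsp90b1, the Hsp90 of the same compartment, was at -0.15 ± 0.13 beside Hspa5 in fast cells (adjusted p = 0.500), with its other 2 probe sets at 0.25 and 0.04. The lectin chaperone Calr was at -0.30 ± 0.17 (adjusted p = 0.283). Both are named outside the rule, as neither passed. Others that did not pass, also outside the rule, had higher means in C6SPGFP fast than in C6 fast cells. Pdia3 was at 1262 against 823.2, Pdia4 at 879.9 against 646.2 and Pdia6 at 1650 against 1248. Of the 20 tested genes, 11 had a positive and 9 a negative value in this comparison. Between fast and slow cells 0 of 20 passed in limma in either set, with 2 at an unadjusted p under 0.05 in C6 and 3 in C6SPGFP. Of all probe sets 6.66% passed there in C6 and 1.39% in C6SPGFP, and 19.4% and 9.69% had such an unadjusted p. In slow cells 1 was higher in C6SPGFP, Dnajb9 (1.002 ± 0.221, adjusted p = 0.0339), a call that ended without C6 slow replicate 2 (0.112), C6SPGFP slow replicate 1 or 2 (0.116 and 0.218) or C6SPGFP fast replicate 1 or 2 (0.0548 and 0.0644). Of 30 list genes with a promoter in the table, 7 held the stress element that Hspa5 holds, among them Ero1b, Hsp90b1 and Calr.

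**Figure D4:**
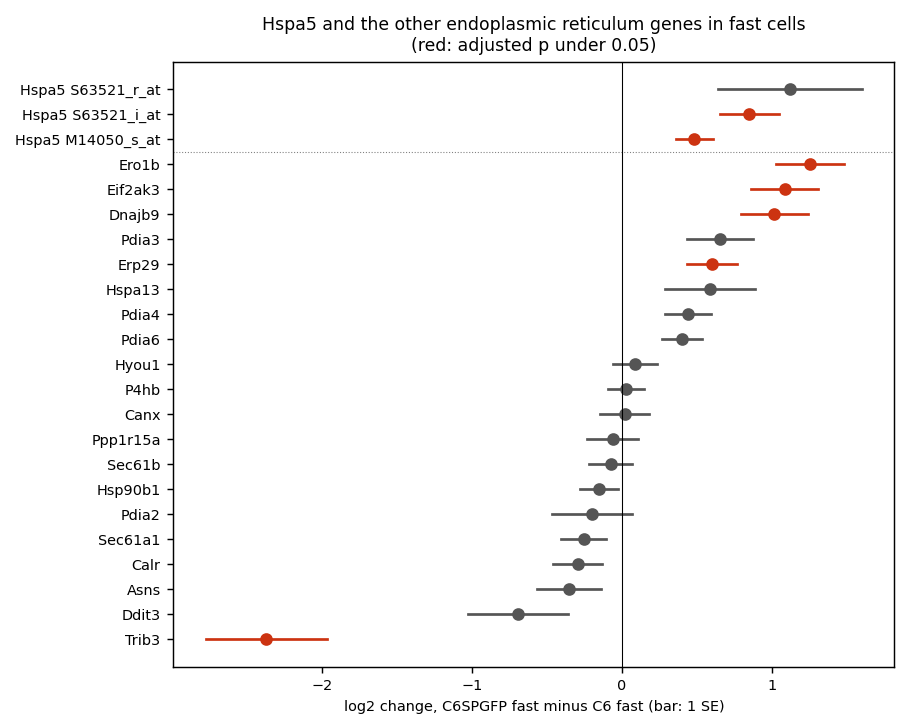
Log2 change from C6 fast to C6SPGFP fast cells for the 3 Hspa5 probe sets (above the dotted line) and the 20 tested genes of the endoplasmic reticulum list, with bars of 1 SE; red marks an adjusted p under 0.05. Ero1b (1.25), Eif2ak3 (1.08) and Dnajb9 (1.02) lie to the right of the Hspa5 values of 0.48 and 0.85 that passed, Hsp90b1 (-0.15) lies near 0, and Trib3 (-2.37) is lowest.

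In the cytosol, 23 of 49 listed heat shock and chaperone genes were tested beside Hsph1, Hspb1 and Hspa8. In fast against slow C6 cells 2 were higher and 2 lower, against 2.69% and 3.96% of all probe sets. The small heat shock proteins went opposite ways: Hspb6 rose from 118.0 ± 33.7 (SD, n = 2) to 286.7 ± 57.6 (1.24 ± 0.24, adjusted p = 0.0163), and Cryab, alpha B-crystallin, fell from 2296 ± 698 to 846.0 ± 352 (-1.46 ± 0.28, adjusted p = 0.0158). Both calls ended without C6 slow replicate 1 (0.0806 for Hspb6 and 0.0932 for Cryab) or C6 fast replicate 2 (0.108 and 0.0704). St13, an Hsp70 cofactor, rose by 0.54 ± 0.12 (adjusted p = 0.0327), which held in 0 of 8 runs without an array (adjusted p up to 0.113). The remaining call was for the stress-inducible Hspa1a, nearly identical in sequence to Hspa1b so that their signals may be mixed. Its signal was 17.99 ± 1.82 (SD, n = 2) in slow and 2.525 ± 0.177 in fast C6 cells, against 4.469 ± 0.875 in slow and 7.387 ± 1.22 in fast C6SPGFP cells. It passed the filter on low signals only through C6 slow cells, so its calls in comparisons with that group are a description and support nothing. It fell below the filter under trimmed mean scaling, cyclic loess and the higher filter and in 3 of 8 runs without an array. In C6SPGFP 0 of 23 passed in limma between fast and slow cells, with 1 at an unadjusted p under 0.05. Of all probe sets 1.39% passed there and 9.69% had such an unadjusted p.

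Between the sets, 2 of the 23 cytosolic genes were higher and 3 lower in C6SPGFP fast cells, and 1, Hspa1a, was lower in C6SPGFP slow cells. Of all probe sets 8.29% were higher and 7.3% lower in the fast and 3.05% lower in the slow comparison. Cryab was at 1.25 ± 0.28 and the cyclophilin Ppid at 0.81 ± 0.22, while Hspb6 was at -0.99 ± 0.24, St13 at -0.72 ± 0.12 and the Hsp90 cochaperone Fkbp4 at -0.52 ± 0.15 (limma adjusted p from 0.00477 to 0.0471). Of these, the call for St13 X82021cds_at held in all 8 runs without an array, although the other St13 probe set was at 0.07 (adjusted p = 0.865), and those for Hspb6, Ppid and Fkbp4 ended in 3 to 6 (adjusted p up to 0.180), in each case without C6 fast replicate 2 and without either C6SPGFP fast replicate. The call for Cryab ended without C6 fast replicate 2 (0.0793) or C6SPGFP fast replicate 1 or 2 (0.0788 and 0.0900).

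Of the mitochondrial chaperones and proteases, the setting of Hspd1 and Hspe1, 6 of 15 were tested and 0 passed in limma in any of the 5 comparisons. Between the sets in slow cells 2 had an unadjusted p under 0.05, and 0 had one in the other 4 comparisons. Of all probe sets 1.39% to 15.6% passed, depending on the comparison, and 9.69% to 28.9% had such an unadjusted p. Of 16 prolyl isomerases, the family of Fkbp2, 6 were tested, and 0 passed in limma between fast and slow cells, with 2 at an unadjusted p under 0.05 in each set. Fkbp11, a further isomerase of the endoplasmic reticulum, was lower in C6SPGFP, at -1.29 ± 0.21 in slow (adjusted p = 0.00983) and -0.73 ± 0.21 in fast cells (adjusted p = 0.0483). Fkbp1a was at 0.51 ± 0.12 in slow and the cyclophilin Ppib at 0.46 ± 0.13 in fast cells. Between the sets 6.34% of all probe sets passed in slow and 15.6% in fast cells. The 4 calls ended in 3 to 7 of 8 runs without an array, with adjusted p-values up to 0.264, and each of them ended without C6SPGFP slow replicate 1 or 2.

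Collagens and their enzymes, the clients and partners of Serpinh1, were tested for 16 of 28 genes. In fast C6 cells 2 fell, Col1a1 (-0.75 ± 0.18, adjusted p = 0.0462) and the crosslinking enzyme Loxl1 (-1.03 ± 0.21, adjusted p = 0.0204). Among fast cells 4 were higher in C6SPGFP, Col1a1 (1.17 ± 0.18, adjusted p = 0.00328), Col3a1 (0.99 ± 0.26), Pcolce (0.64 ± 0.15) and, named outside the rule, Col5a2 (0.49 ± 0.13), and the proline hydroxylase subunit P4ha1 was lower (-1.09 ± 0.23). Among slow cells Col8a1 was lower (-1.96 ± 0.40). Of all probe sets 3.96% were lower in fast than in slow C6 cells. Between the sets 8.29% were higher and 7.3% lower in fast cells, and 3.05% were lower in slow cells. The Col1a1 call in C6 ended in all 8 runs without an array (adjusted p from 0.0555 to 0.149), while the one among fast cells held in all 8. The other 3 Col1a1 probe sets were at 0.53 (adjusted p = 0.278), 0.68 (0.0340) and 0.18 (0.689) among fast cells. The other calls ended in 3 to 5 of 8 runs (adjusted p up to 0.225). Those for Loxl1, Col3a1, Pcolce and P4ha1 ended without C6 fast replicate 1, that for Col5a2 without C6 fast replicate 2 or any C6SPGFP array, and that for Col8a1 without C6 slow replicate 2, C6SPGFP slow replicate 1 or C6SPGFP fast replicate 2.

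For the 3 members that passed a test, the genes with the most similar pattern were sought by Pearson's r of log2 values across the 8 arrays, with no test and on the brightest probe set of each. For Hsph1 and Hspb1 these, rc_AI236601_at and rc_AA998683_at, are not the probe sets that passed. They were Rpl36 (0.976), Hmox2 (0.973) and Nat2 (0.972) for Hsph1, and Pdgfra (0.983), Mobp (0.977) and Ppara (0.963) for Hspb1, with Mobp at only 6.23 and 6.84 in slow and fast C6 cells. For Hspa5 they were Mapk12 (0.969), Akr7a3 (0.949) and Ppib (0.949). The arrays fall into 4 groups of 2, which all these values share.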

How the data were processed

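The authors deposited 1 linear intensity signal per array for each of 8799 probe sets, including 59 controls. No source here names the software, and 1 array had another scale, as given above. Quantile normalisation was applied to all 8 arrays, and log2 of signal plus 8 was fitted in limma 3.58.1 (R 4.3.3; lmFit, eBayes with trend) with 4 group means, 2 arrays each, two-sided, which left 4 residual and 4.49 prior degrees of freedom. A mean signal of 8 or more after normalisation was required for a test (6684 probe sets). Alternatives were trimmed mean scaling, cyclic loess, pseudocounts of 2 and 32, no filter or one at 32, no trend, fewer arrays, the replicate number as a block, and each array left out. The fit was tested on simulated data.

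Symbols came from the platform's probe table, with 7018 probe sets of a single symbol, 308 of several and 1473 of none, and 6994 were updated by Entrez identifier through RefSeq genes of GRCr8. Listed genes were read on their brightest probe set. All called members are named, with up to 3 called genes per list, direction and comparison. The members and lists were chosen with earlier results of these data known. Detection calls are not used here.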

Additional observations from a re-analysis of the deposited data

Results flagged for a closer look

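Among the members, none had a fast minus slow change that differed between the sets after adjustment. Of the listed genes, 2 did on their brightest probe set. The other 3 probe sets of Col1a1 did not pass for this difference, at log2 values of 0.72, 0.81 and 0.27 (limma adjusted p = 0.481, 0.149 and 0.778). For Hspa1a the change in C6SPGFP minus that in C6 was 1.60 on the log2 scale (limma adjusted p = 0.0407), with signals of 17.99 in slow and 2.525 in fast C6 cells, and 4.469 in slow and 7.387 in fast C6SPGFP cells. The gene entered the test only through C6 slow cells, the other 3 groups being under the minimum signal of 8, so the value describes that group and supports no difference between the sets. It ended in all 5 runs without an array in which the gene was tested (adjusted p from 0.0885 to 0.156). For Col1a1 the difference was 1.25 (adjusted p = 0.0355), with signals of 190.4 in slow and 109.6 in fast C6 cells and of 179.5 in slow and 257.6 in fast C6SPGFP cells, and it ended in all 8 runs without an array (0.0549 to 0.149).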

How the results depend on the processing

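With 2 arrays per group, the 4 calls among the members were close to the threshold, and no call turned its sign. Of 68 alternative values for these 4 calls, 41 kept the call and 27 lost it. The number of members called between the sets in slow cells, 2 as reported, was 0 without a filter and 1 without the trend or with only the arrays compared, and it ranged from 0 to 2 over the runs that left out an array. In fast cells, also 2 as reported, it was 1 without the trend or with only the arrays compared, and ranged from 0 to 2. Without an array it was 0 to 0 in the other 3 comparisons. Over all probe sets, runs without an array called 279 to 446 in C6, 21 to 107 in C6SPGFP, 123 to 273 on the difference, and 95 to 421 and 509 to 1127 between the sets in slow and fast cells. The fit of the C6 arrays alone called 250 instead of 445. Among 1407 alternative values of members not called, 55 changed sign without passing, and 1 passed with the other sign: Hspa8 rc_AI234604_s_at in fast cells at -0.43 under trimmed mean scaling. Serpinh1 fell below the filter under that scaling and cyclic loess.

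Whether replicate numbers pair the arrays is not in the labels. The correlation of same-numbered deviations across probe sets ran from -0.127 to 0.266 between groups, highest for C6 slow with C6 fast. A single value per pair of groups cannot settle the pairing. With the replicate block 424, 87, 235, 392 and 989 probe sets were called, and the members' counts stayed at 0, 0, 0, 2 and 2. Among listed genes the block ended the calls for St13 in C6 (0.0506), Hspa1a on the difference (0.0614) and in slow cells (0.0567), and Fkbp4 (0.0520), Fkbp11 (0.0534), Ppib (0.0564) and Col5a2 (0.0534) in fast cells. Signals near the lowest values are not shown to be above background, which limits Serpinh1 and Hspa1a.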

Other observations

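Several chaperones were read by more than 1 probe set, and the second readings were not part of the counts above. Cryab X60351cds_s_at fell in fast C6 cells (-1.37, limma adjusted p = 0.00378) as its brighter probe set did, and for it the change in C6SPGFP minus that in C6 passed (1.31, adjusted p = 0.0400). Hspb6 rc_AI103838_g_at rose in fast cells of both sets, by 1.12 in C6 (adjusted p = 0.0122) and 1.21 in C6SPGFP (adjusted p = 0.0264). Fkbp4 rc_AI136977_at rose in fast C6 cells (1.04, adjusted p = 0.00790), while its other 2 probe sets did not pass there. Canx L18889_at, a lectin chaperone of the endoplasmic reticulum, rose in fast C6 cells (0.56, adjusted p = 0.0443), against adjusted p-values of 0.745 to 0.954 on 3 others. The other probe set of Trib3 was at -1.23 between the sets in fast cells (adjusted p = 0.136), and that of Eif2ak3 at 0.58 (adjusted p = 0.103). The other 3 probe sets of Hsp90ab1, a constitutive Hsp90 of the cytosol, lay between -0.27 and 0.10 in the 5 comparisons and did not pass. These probe sets were chosen after their values were seen.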
